A study of Homo sapiens with 6 samples.

Results

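The alpha- and beta-tubulin genes are described here through the probes that carry the single symbol TUBA1A, TUBA1B, TUBA3C, TUBA4A, TUBB2B, TUBB3, TUBB4A, TUBB4B or TUBB6 in the platform annotation. There were 19 such probes for these 9 genes, 14 for the 4 alpha-tubulins and 5 for the 5 beta-tubulins, among 14080 probes in all. The study put RNA of the human cell line GM00156, from the Coriell repository, on 6 two-colour arrays. Cells were given emetine at 100 µg/ml, or left untreated, for 10 h, and actinomycin D was then added to both at 5 µg/ml. Harvests followed 0, 10 and 30 min and 1 and 8 h after actinomycin D, and each harvest gave 1 array that compared emetine-treated with untreated cells. The sixth array, called self-self, carried RNA of the emetine-treated 0 min cells in both channels, and its label mentions no actinomycin D. The labels do not state a cell type, a passage or whether the harvests came from separate cultures.

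Tubulin is the building block of microtubules, which are polymers of alpha-beta dimers. Cells are known to adjust their tubulin mRNA to the amount of free dimer. In this autoregulation, the factor TTC5 binds the first amino acids of a nascent alpha- or beta-tubulin chain at the ribosome, and the mRNA under translation is then degraded, so that the process needs running ribosomes. Emetine stops ribosomes on the mRNA, and actinomycin D stops the synthesis of new RNA.

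Every value is a log2 ratio between the channels of an array, as deposited, and 1 unit is a factor of 2. The labels give Cy3 to emetine-treated and Cy5 to untreated RNA and state that the sample was divided by the reference, but not which of these cells were the reference, although they call the untreated cells the control. The sides are therefore called negative and positive, and no rise or fall is read from them. If emetine-treated cells were the numerator, a negative value would stand for less tubulin mRNA in emetine-treated than in untreated cells, and otherwise for more. Per the labels, the ratios of a slide were scaled through housekeeping genes. Less or more is thus relative to those genes, and no absolute amount of mRNA, cell number or total RNA is read from the ratios. The 0 min array carries conflicting labels, because the channel names tell of treated against untreated cells and the description of treated cells in both channels. Over all probes the robust SD was 0.44, 0.91, 0.78, 0.53 and 0.87 on the harvest arrays in order of time, against 0.12 on the self-self array, so sizes are not on the same footing between harvests. Entries at a value repeated at 333 to 534 probes of an array were taken as not measured, which left 18 of the 19 tubulin probes measured on all 6 arrays. The remaining probe, 7488 of TUBA1A, was measured at 10 min, 1 h and on the self-self array.

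Most tubulin probes lay on the negative side. Over the 5 harvests, 16 of the 18 probes had a negative mean and passed limma's adjusted p of 0.05, 1 passed on the positive side and 1 did not pass. Without the 0 min array, whose labels conflict, 16 and 1 passed as well. Among all 13151 probes measured at the 5 harvests, 26.3% passed on the negative and 35% on the positive side. The median of the 18 means was -2.10, and that of all probes was 0.12. A mean of -1 or lower that passed was found for 13 tubulin probes and for 5.94% of all probes. A mean of -2 or lower that passed was found for 10 tubulin probes and for 54 probes (0.411%) in all, and those 10 are not independent, since 7 report TUBA1A, 2 TUBA3C and 1 TUBA4A. With a gene's probes averaged, 7 of the 9 genes passed on the negative and 1 on the positive side, against 25.3% and 37% of 8748 genes. When the self-self array entered the fit as the level to compare with, no tubulin probe passed (lowest limma adjusted p = 0.167), and 2 of all probes did.

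**Figure D1:**
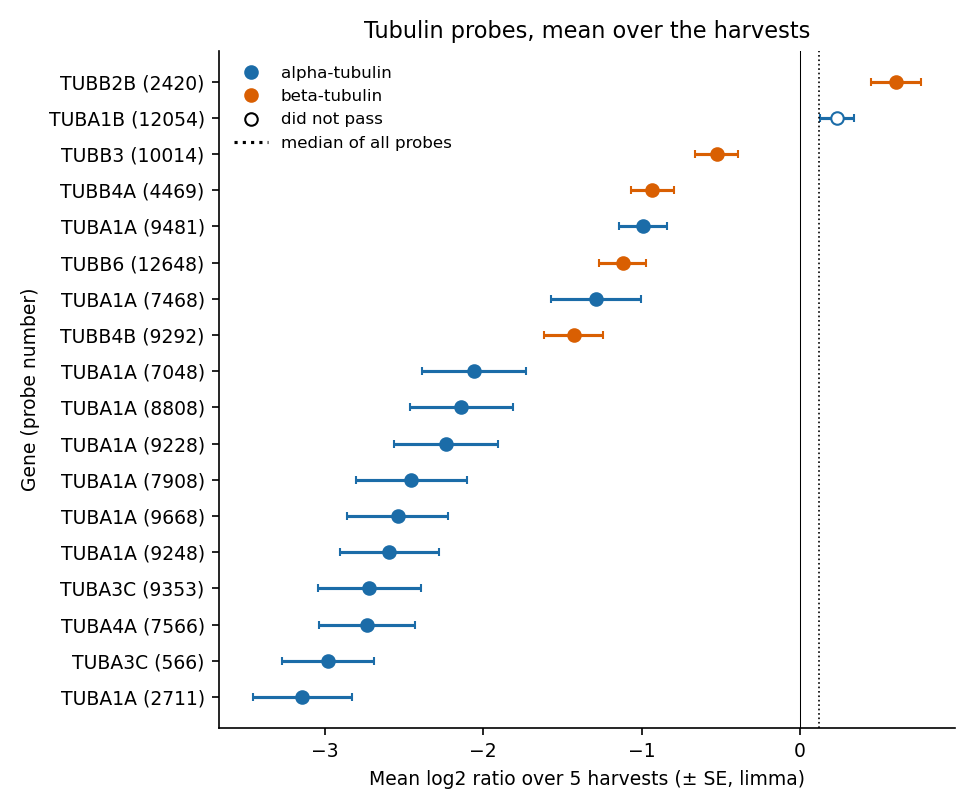
Mean log2 ratio of each of the 18 tubulin probes measured at all 5 harvests (horizontal axis, bars are limma's SE), with probes ordered by their mean and named by gene and probe number. Filled points passed an adjusted p of 0.05, the open point of TUBA1B did not, and the dotted line is the median of all probes at 0.12.

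Among the alpha-tubulins, 12 of 13 fitted probes passed on the negative side. TUBA3C, an alpha-tubulin described mainly from testis, had the most negative mean of the 9 genes, -2.85 (SE 0.30, limma adjusted p = 0.000462). Its probe 566 stood at -1.30, -3.96, -2.90, -2.76 and -3.97 over the harvests in order of time, with -0.16 on the self-self array. Its probe 9353 stood at -1.23, -3.97, -3.07, -2.70 and -2.62, with -0.11 on the self-self array. The probes differed by less than 0.2 at 0, 10 and 30 min and 1 h, and by more at 8 h. All 10 harvest values lay below every self-self value of the family.

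TUBA4A, an alpha-tubulin that many tissues and platelets make, followed the same course. Its probe stood at -1.24, -3.85, -2.77, -2.33 and -3.46 over the 5 harvests, with -0.12 on the self-self array. The mean was -2.73 (SE 0.30, limma adjusted p = 0.000462). Its size was smallest at 0 min, as it was for both TUBA3C probes, on the harvest array with the smallest robust SD over all probes (0.44).

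TUBA1B, which codes for one of the most widely made alpha-tubulins, stood apart. Its probe was at 0.16, 0.10, 0.29, 0.21 and 0.40 over the 5 harvests, with -0.00 on the self-self array. All 5 harvest values were positive, and all lay within the central 99% of the self-self array, which ran from -0.32 to 0.47. The mean of 0.23 (SE 0.10) did not pass (limma adjusted p = 0.0829 with genes averaged), and it was close to the median of all genes, 0.14.

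TUBA1A, an alpha-tubulin best known from neurons and made in many dividing cells, has 10 probes, and they did not give the same values. Probe 2711 stood at -0.94, -3.91, -3.41, -3.09 and -4.35 over the 5 harvests, with -0.18 on the self-self array. Its 8 h value was the lowest of all probes measured on that array. Probe 9481 stood at -0.43, -1.39, -1.04, -0.81 and -1.28, with -0.12 on the self-self array. Its values were negative at every harvest and smaller in size than those of probe 2711.

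**Figure D2:**
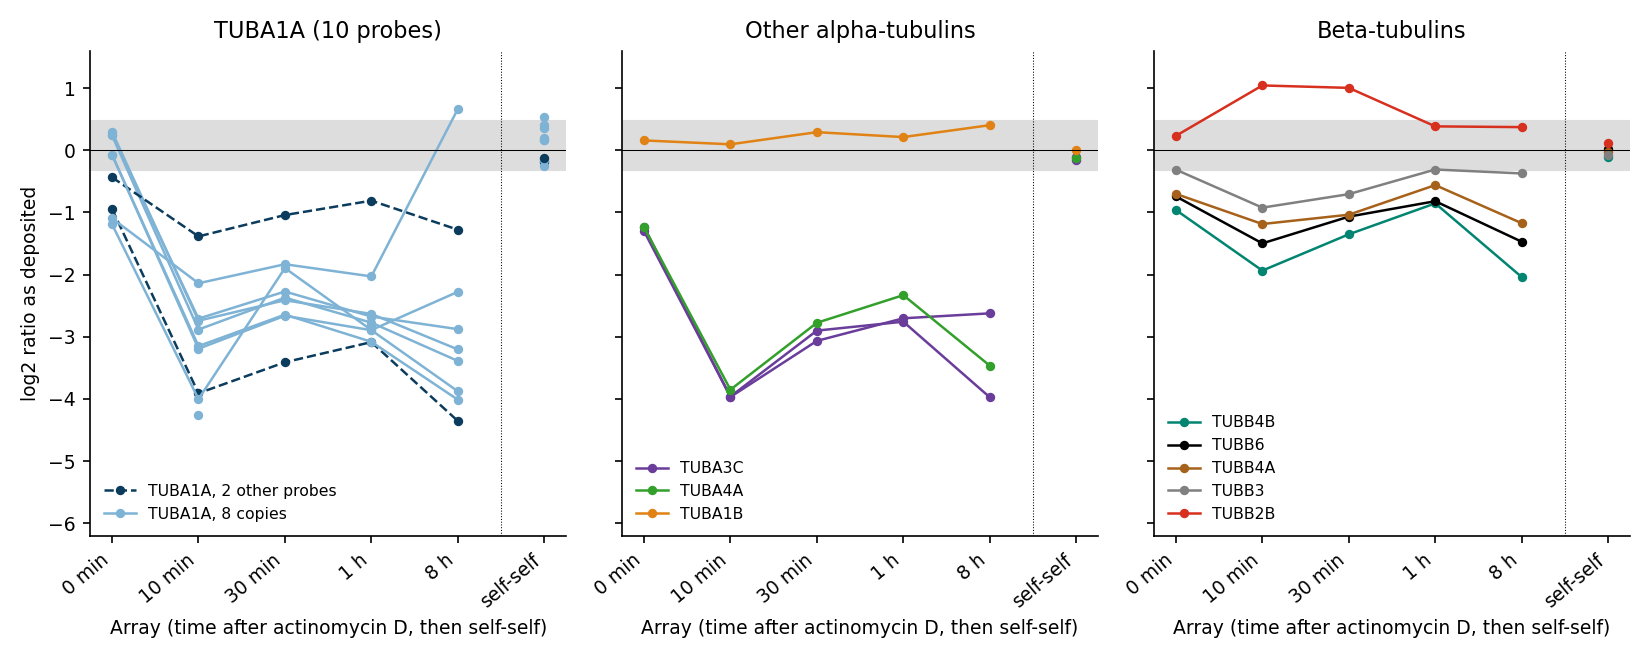
Log2 ratio as deposited (vertical axis) of each tubulin probe on the 5 harvest arrays in order of time and on the self-self array at the right of each panel, with the grey band from -0.32 to 0.47 for the central 99% of the self-self array. TUBA3C, TUBA4A and most TUBA1A probes lay below -2 from 10 min on, the beta-tubulins other than TUBB2B between -0.31 and -2.04, and TUBA1B within the band.

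The other 8 TUBA1A probes sit at fixed steps of probe number, and 63 sets of 8 probes for the same gene have these steps, among them sets for ACTB, GAPDH and TUBB. They are treated here as copies of 1 printed clone, which the annotation does not state. At 0 min the 7 copies measured at all harvests ran from -1.19 to 0.30 with a median of -0.07. The 10 min values ran from -4.00 to -2.14 and the 30 min values from -2.66 to -1.83. The 1 h values ran from -3.08 to -2.03 and the 8 h values from -4.01 to 0.66. On the self-self array they ran from -0.25 to 0.40.

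At 0 min the copies overlapped their self-self values. At 10 and 30 min and 1 h all 7 lay below them, and at 8 h 6 lay below them and probe 7468 above them. Probe 7048, for example, was at 0.25, -2.71, -2.27, -2.67 and -2.88 over the harvests and at 0.40 on the self-self array, and the share of all measured probes at or below it was 68.5% at 0 min and 0.337% at 8 h. Probe 8808 was at 0.30, -2.74, -2.41, -2.63 and -3.20, with 0.36 on the self-self array, and probe 9228 at 0.24, -2.88, -2.37, -2.77 and -3.39, with 0.20. Probe 9248 was at -0.07, -3.15, -2.64, -3.08 and -4.01, with 0.16 on the self-self array, and probe 9668 at -0.07, -3.19, -2.66, -2.89 and -3.88, with 0.17. These 5 copies lay near 0 at 0 min and below -2 at every later harvest. Probe 7908 differed from them at 0 min, at -1.19, -4.00, -1.90, -2.89 and -2.28 over the harvests, with -0.16 on the self-self array. For TUBA3C probe 566 the share of probes at or below it was 0.357% at 0 min and 0.0732% at 8 h. The ACTB copies, which stand next to the TUBA1A copies by probe number, had a median of 0.63 at 0 min and of 0.36 on the self-self array. Whether these copies served as the housekeeping genes of the authors' normalisation is not stated.

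The means of the 7 copies ran from -2.59 to -1.29. That range of 1.31 was the third largest of the 63 sets, whose median range was 0.21. The highest of these means belonged to probe 7468, which stood at -1.09, -2.14, -1.83, -2.03 and 0.66 over the harvests and at -0.25 on the self-self array, and the other 6 means ran from -2.59 to -2.06. The next probe by number, 7469 of the chaperone gene HSP90AB1, was at 0.69 at 8 h, while the other 7 HSP90AB1 copies were between -1.08 and -0.71 there. The probe before it by number, 7467 of ACTB, was at 0.08 at 8 h, within the range of the other ACTB copies, -0.93 to 0.21. The part of spot position in the 8 h values of these neighbours was not tested. Probe 7488, which was not fitted, stood at -4.26 at 10 min and -2.83 at 1 h, with 0.53 on the self-self array.

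**Figure D3:**
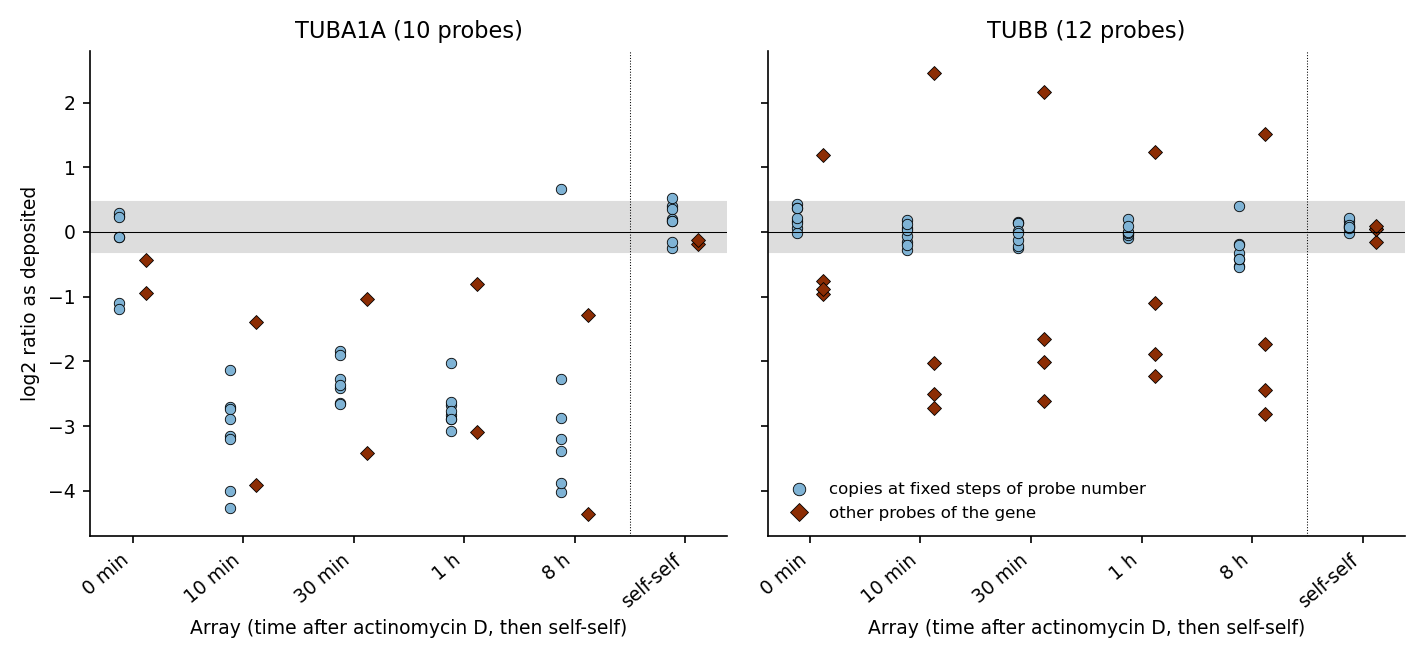
Log2 ratio as deposited (vertical axis) of the 10 TUBA1A probes and the 12 TUBB probes on each array, with copies at fixed steps of probe number as circles and the other probes of each gene as diamonds, entries not measured left out, and the grey band as the central 99% of the self-self array. The TUBA1A copies lay at -1.83 or lower at 10 min, 30 min and 1 h, whereas those of TUBB stayed between -0.54 and 0.43 at all harvests.

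The promoters of the alpha-tubulins are shown because they include the most negative genes of the family and TUBA1B, which did not pass. Each line gives the 100 bases before the transcription start, 5′ to 3′ on the strand of the gene, from RefSeq on GRCh38.p14. TUBA1A lies at chr12:49189081-49189180, TUBA3C at chr13:19181825-19181924, TUBA4A at chr2:219253919-219254018 and TUBA1B at chr12:49131396-49131495, all on the minus strand. Capitals mark CCAAT or its reverse complement ATTGG, and GGGCGG or its reverse complement CCGCCC.
TUBA1A: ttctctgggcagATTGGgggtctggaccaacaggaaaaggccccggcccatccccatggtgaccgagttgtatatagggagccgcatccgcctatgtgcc
TUBA3C: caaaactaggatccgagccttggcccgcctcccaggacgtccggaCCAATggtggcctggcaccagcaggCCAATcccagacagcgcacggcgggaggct
TUBA4A: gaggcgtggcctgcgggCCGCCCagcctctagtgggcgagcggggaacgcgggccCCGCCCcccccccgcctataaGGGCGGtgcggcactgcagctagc
TUBA1B: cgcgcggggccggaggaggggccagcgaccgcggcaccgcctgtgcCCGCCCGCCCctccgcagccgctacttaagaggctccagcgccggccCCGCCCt
In windows from 250 bases before to 50 after the start, TUBA1A held 2 matches to CCAAT and TUBA3C 5, with no GGGCGG in either. TUBA4A held 4 matches to GGGCGG and TUBA1B 3, with no CCAAT in either. Neither motif was common to the negative genes TUBA1A, TUBA3C and TUBA4A, and TUBA4A held the same motif as TUBA1B. Overlapping matches were counted separately. CCAAT on either strand was found in 34.6% of all 35116 windows, GGGCGG in 45.0% and TATAAA in 11.5%. Of the 9 tubulin genes, 7 had CCAAT, 6 had GGGCGG and 0 had TATAAA in at least 1 of their windows, and TUBB3, TUBB4A and TUBB6 have 2 windows each. These are matches of letters and no binding was measured.

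The beta-tubulins were mostly negative too. Of their 5 probes, 4 passed on the negative and 1 on the positive side, and the median mean was -0.93, against -2.45 over the 13 alpha-tubulin probes. At 0 min the order of the medians over probes was the other way, with -0.70 over the beta-tubulin and -0.43 over the alpha-tubulin probes. Of the 13 alpha-tubulin probes, however, 9 report TUBA1A. With a gene's probes averaged, the 0 min median was -0.79 over the alpha-tubulin and -0.70 over the beta-tubulin genes. None of these differences was tested. TUBB4B, a widely made beta-tubulin, stood at -0.96, -1.94, -1.35, -0.85 and -2.04 over the 5 harvests, with -0.11 on the self-self array. Its mean was -1.43 (SE 0.18, limma adjusted p = 0.000574). TUBB6, also made in many tissues, stood at -0.74, -1.50, -1.07, -0.82 and -1.47, with 0.01 on the self-self array, and its mean was -1.12 (SE 0.14, limma adjusted p = 0.000569). All 10 harvest values of these 2 genes lay below the self-self range.

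TUBB4A and TUBB3 are beta-tubulins best known from the nervous system. TUBB4A stood at -0.70, -1.19, -1.04, -0.56 and -1.17, with -0.03 on the self-self array (mean -0.93, SE 0.13, limma adjusted p = 0.000837). TUBB3 stood at -0.31, -0.92, -0.71, -0.31 and -0.37, with -0.08 on the self-self array (mean -0.52, SE 0.13, limma adjusted p = 0.00965). TUBB4A lay below the self-self range at all 5 harvests and TUBB3 at 3. TUBB4A and TUBB4B were smallest in size at 1 h and TUBB6 at 0 min, while TUBB3 was at -0.31 at both. The 0 min and 1 h arrays also had the smallest robust SD over all probes, 0.44 and 0.53.

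TUBB2B, a beta-tubulin of the developing brain, was the member that passed on the positive side. It stood at 0.23, 1.04, 1.00, 0.38 and 0.37 over the 5 harvests, with 0.12 on the self-self array. Its mean was 0.61 (SE 0.16, limma adjusted p = 0.0108). It exceeded the self-self range at 10 and 30 min and lay inside it at the other harvests.

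Ordered by the mean, the genes were TUBA3C, TUBA4A, TUBA1A, TUBB4B, TUBB6, TUBB4A, TUBB3, TUBA1B and TUBB2B. The place of TUBA1A depends on the probe, since its value averages 9 probes, 7 of them taken as copies of 1 clone. Its probes 2711 and 9481 had means of -3.14 and -0.99. TUBA4A minus TUBA3C averaged 0.12 ± 0.21 (SD, n = 5 harvests) and was positive at 4 harvests, a mean smaller than its SD. TUBB4B minus TUBA1A averaged 0.73 ± 0.84 and TUBB2B minus TUBA1B 0.37 ± 0.43, also means smaller than their SD. Each difference was positive at 4 harvests. TUBA1A minus TUBA4A averaged 0.57 ± 0.47 and was positive at 4 harvests. TUBB6 minus TUBB4B averaged 0.31 ± 0.20, TUBB4A minus TUBB6 0.19 ± 0.14, TUBB3 minus TUBB4A 0.41 ± 0.23 and TUBA1B minus TUBB3 0.76 ± 0.26. Each of these last 4 differences was positive at all 5 harvests. The harvests are different times and may share cultures, so these SDs include changes over time, and none of the differences was tested. Tubulin transcripts are so alike that cross-hybridisation between members cannot be told apart from their own signal.

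Set against the self-self array without a test, 10 of the 18 tubulin probes lay below its range at 0 min, when 20.8% of 13091 probes did. The 10 and 30 min harvests had 16 each below it, against 34.1% and 29.9% of all probes, and the 1 h and 8 h harvests had 15 each, against 26.4% and 29.8%. Above it lay no tubulin probe at 0 min or 1 h, when 18.6% and 19.2% of all probes did. The 10 min, 30 min and 8 h harvests had 1 tubulin probe each above it, against 33.2%, 33.3% and 33.5% of all probes. The value above it at 10 and 30 min was that of TUBB2B and the one at 8 h that of TUBA1A probe 7468. At all 5 harvests 9 tubulin probes lay below the range (13.1% of all probes) and 0 above it (10.5%). The 9 are 3 probes of TUBA1A, both of TUBA3C and those of TUBA4A, TUBB4A, TUBB4B and TUBB6. Of the 18 probes 9 report TUBA1A, most of them taken as copies of 1 clone, so these counts are not of independent members.

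A change of the ratios along the time after actinomycin D was not called. The slope on log2(1 + min / 10) was negative for 15 of the 18 tubulin probes, and none passed limma's adjusted p of 0.05, the lowest being 0.175 for TUBA1A probe 9248. At an unadjusted p under 0.05 there were 7, all of TUBA1A. Among all probes 0 of 13151 (0%) passed and 1870 (14.2%) had an unadjusted p under 0.05. For probe 9248 the slope was -0.55 (SE 0.16), and 1 unit of the time scale is a doubling of 1 + min / 10. Probe 7468, with its positive 8 h value, had a slope of 0.38 (SE 0.15). With probes averaged and the 0 min array left out, the slope was -0.01 (SE 0.08) for TUBA1A, 0.08 (SE 0.13) for TUBA3C and 0.01 (SE 0.16) for TUBA4A, against -0.29 (SE 0.15), -0.20 (SE 0.16) and -0.23 (SE 0.16) with it. With probes averaged, the negative slopes of these 3 genes thus rested on the 0 min array, the one with conflicting labels. For TUBA1A that average joins probes of unlike course after 10 min. Probes 2711, 7048, 8808, 9228, 9248 and 9668 were lower at 8 h than at 10 min, as with -4.01 against -3.15 for 9248. Probes 7468, 7908 and 9481 were higher at 8 h than at 10 min, as with 0.66 against -2.14 for 7468.

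TUBB, a major beta-tubulin of dividing cells that is not among the 9 genes, was the only measured gene of the 9 further alpha- and beta-tubulins that were looked for. Its 12 probes carry the same annotation but gave values on both sides, so the sign of TUBB depends on the probe. The 7 copies fitted had means from -0.22 to 0.08, and none passed. Probes 12450 and 12650 had means of -2.18 (SE 0.22) and -1.99 (SE 0.22), each with a limma adjusted p of 0.000499, and probe 6216 had a mean of -1.49 (SE 0.17, limma adjusted p = 0.000506). Probe 14091 was positive at all 5 harvests, at 1.19, 2.46, 2.16, 1.24 and 1.51, with 0.09 on the self-self array. The means of TUBB spanned 3.90, the second largest span among 1533 genes with more than 1 fitted probe, and those of TUBA1A 2.15, the 25th largest, while the median span was 0.33. The span of TUBA3C was 0.26.

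Gamma-tubulin, which nucleates microtubules, was also negative. TUBG1 stood at -0.82, -2.23, -1.94, -1.47 and -1.50 over the 5 harvests, with -0.06 on the self-self array (mean -1.59, SE 0.20, limma adjusted p = 0.000536). TUBG2 had a mean of -1.11 (SE 0.15). With the ring proteins, 4 of 6 measured genes were negative and passed and none was positive and passed, where 25.3% and 37% of all genes did so, led by MZT1, a small ring subunit, at -1.69 (SE 0.16).

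Genes that fold tubulin are given beside the same shares of all genes, 25.3% passing on the negative and 37% on the positive side. Of 7 subunits of the CCT chaperonin, which folds newly made tubulin and actin, 4 passed on the negative side, and the median was -0.71. CCT3 was at -1.43 (SE 0.16), CCT6A at -1.21 (SE 0.16), CCT5 at -0.85 (SE 0.14) and CCT4 at -0.71 (SE 0.14). Of 4 measured subunits of prefoldin, which hands tubulin to CCT, 2 passed on the negative side, VBP1 at -0.59 (SE 0.12) and PFDN5 at -0.37 (SE 0.13). The cofactors, which assemble and take apart the dimer, and their regulator ARL2 gave 6 measured genes together. Among these, 3 negative means and 1 positive mean passed. These were TBCD at -0.82 (SE 0.12), TBCB at -0.78 (SE 0.14), TBCA at -0.60 (SE 0.12) and TBCE at 0.61 (SE 0.11).

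The list for tubulin mRNA decay holds TTC5, its partner SCAPER and subunits of CCR4-NOT, a complex that removes poly(A) tails. The 10 genes measured were all CCR4-NOT genes. Of these, 5 were positive and passed and 1 was negative and passed, beside 37% and 25.3% of all genes, and the median was 0.34. The ubiquitin ligase CNOT4 was at 2.45 (SE 0.23), the deadenylase CNOT6L at 1.61 (SE 0.16), and the subunits CNOT3 and CNOT2 at 1.06 (SE 0.13) and 0.89 (SE 0.14). CCR4-NOT is known to act on mRNAs of all kinds.

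In the other microtubule lists, counts are again of genes that passed, beside 25.3% of all genes on the negative and 37% on the positive side. Of 22 microtubule-associated and plus-end proteins 6 passed as negative and 7 as positive, shares near those of all genes, with a median of 0.03. CAMSAP2, which binds minus ends, was at 1.75 (SE 0.28), MAP1S at 1.26 (SE 0.20), the plus-end protein CLIP2 at -1.05 (SE 0.18) and stathmin, STMN1, which binds free tubulin, at -0.92 (SE 0.14). Of 21 motor genes 7 passed as negative and 8 as positive, also near the shares of all genes, with a median of 0.09, among them the dynein light chain DYNLL1 at -1.28 (SE 0.16), the kinesin KIF3C at -1.27 (SE 0.15), KIF2A at 1.16 (SE 0.13) and the dynein light chain DYNLT3 at -0.99 (SE 0.13). Of 7 enzymes that modify tubulin 1 passed as negative and 3 as positive, with a median of -0.03. TTL, which adds the C-terminal tyrosine to alpha-tubulin, was at -1.43 (SE 0.13). Of 9 actins and intermediate filament genes 6 passed as negative and 0 as positive, with a median of -0.47, from KRT18 at -1.22 (SE 0.28) on. The median of all genes was 0.14, and these lists are read beside it without a test.

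**Figure D4:**
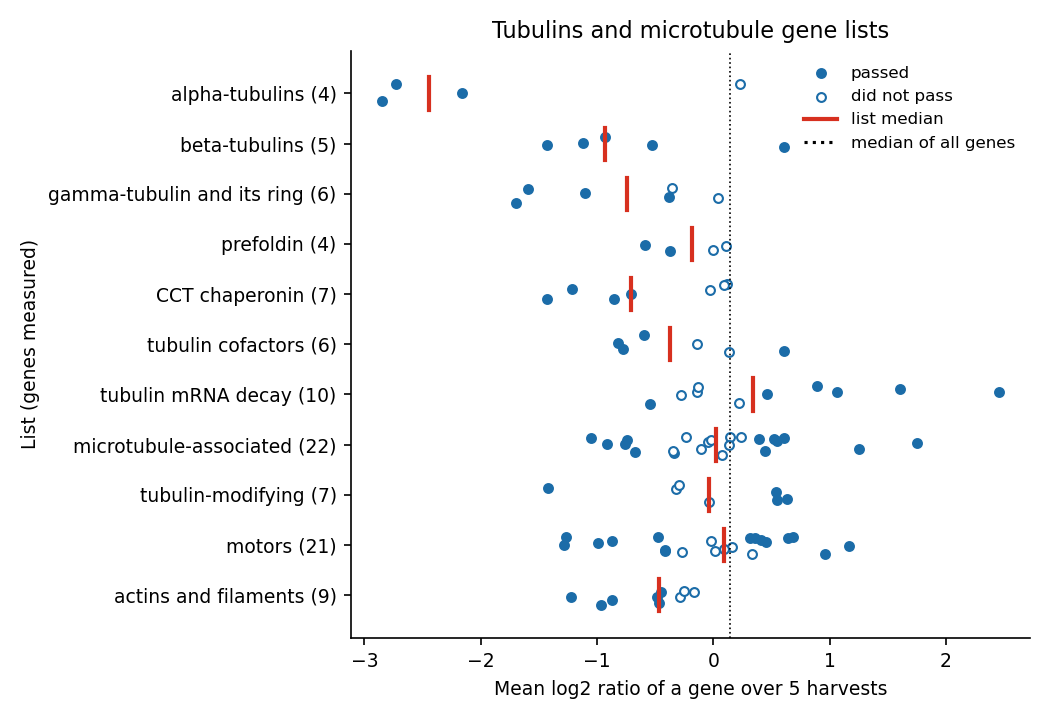
Mean log2 ratio over the 5 harvests (horizontal axis) of each gene of the tubulins and of 9 other microtubule and cytoskeleton lists, with the number of genes measured in brackets, red bars for list medians and a dotted line for the median of all genes at 0.14. Filled points passed limma's adjusted p of 0.05. The lowest list medians as drawn are those of the 4 alpha-tubulins at -2.45 and the 5 beta-tubulins at -0.93. The beta-tubulins leave out TUBB, whose mean was -0.37 with its probes averaged, and gamma-tubulin with its ring had a median of -0.75.

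Among 8724 other genes measured on all 6 arrays, those whose values over the 5 harvests lay nearest to TUBA3C included its relative TUBA4A, with a root mean square difference of 0.22. The 6 nearest genes outside the tubulins were TIMP3 (0.22), TMBIM6 (0.33), TSPAN13 (0.36), SFRP1 (0.38), KDELR3 (0.43) and COMP (0.48). TIMP3, a metalloproteinase inhibitor, stood at -1.51, -3.65, -2.76, -2.62 and -3.49 over the harvests. KDELR3, a receptor that returns proteins to the endoplasmic reticulum, stood at -1.14, -3.06, -2.88, -2.52 and -3.08. TUBA1A ranked 14th, TUBB4B 112th and TUBA1B 4761st in this likeness.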

How the data were processed

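Per the labels, the authors used background-subtracted average spot intensities, divided sample by reference, scaled the ratios of a slide through housekeeping genes by ratio statistics, and left out ratios with a quality value below 0.5. The deposited values are log2 ratios. Their base was read from the values, since raising 2 to them gave whole multiples of 1/10000 (tolerance 0.05) for 99.5% or more of each array's entries. No intensities were used here, and the number of arrays limits the precision.

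Entries at the repeated value of an array were taken as not measured. Probes with 1 gene symbol (11304, against 446 with several and 2330 with none) were named through gene IDs. A line over the 5 harvest arrays, with time as log2(1 + min / 10) and centred, was fitted to every probe, and to every gene with its probes averaged, by limma 3.58.1 in R 4.3.3, which leaves 3 residual degrees of freedom. Benjamini-Hochberg adjustment ran over the whole table, and tests are two-sided. The p-values measure only the spread around a line over 5 arrays, which may be technical. The fit was tested on simulated data.

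Every tubulin probe is given. The 4 genes of a list with the means farthest from 0 could be named, and likeness names the 6 nearest genes outside the family to the tubulin gene with the mean farthest from 0. Members and lists were chosen with earlier results of these data known. TUBB probes, copies at fixed steps and the ACTB and HSP90AB1 neighbours were described after their values were seen. Alternatives changed the treatment of repeated values, centring, scaling, arrays left out, the slope, the use of the self-self array, moderation and the self-self limits.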

Additional observations from a re-analysis of the deposited data

How the results depend on the processing

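The counts of tubulin probes passing for the mean, 16 negative and 1 positive, stayed at 16 and 1 with repeated values kept, with arrays centred or scaled, with each harvest array left out in turn, without the slope, with self-self values subtracted and with robust moderation. With the self-self array in the fit both counts were 0, and 8 gene means that had passed no longer did. That fit has 1 self-self array, assumed to vary like the harvests. Centring took 0.05 to 0.15 off the harvest arrays. Over all 117 alternatives of the 9 gene means the direction was the same. TUBA1A ran from -2.61 to -1.97, TUBA3C from -3.24 to -2.57 and TUBB2B from 0.48 to 0.70. The number of tubulin probes below the self-self range at all 5 harvests was 9, against 4 with a limit of 1 log2 unit (66 of all probes) and 3 with arrays scaled to equal spread (22 of all probes). The number above it was 0 under each setting. No tubulin slope passed under any alternative, although 574 of all probes did without the 1 h array. No paired analysis was possible because each harvest has 1 array and the labels give no replicate numbers.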

Other observations

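The labels give no cell type, and ratios give no level of expression, so marker genes cannot show which cells these were. Of 9 measured fibroblast markers 6 passed on the negative and 1 on the positive side, with a median mean of -0.99, where 25.3% and 37% of all genes passed. Of 5 measured B lymphocyte markers 0 passed as negative and 1 as positive, with a median of -0.01. Of 5 neuron markers, the cell type in which TUBB3, TUBB4A and TUBB2B are best known, 1 passed as negative and 3 as positive, with a median of 0.40. Of 5 epithelial markers 1 passed as negative and 2 as positive, with a median of 0.38. The part of cell type in the tubulin ratios was not tested.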
